A study of Mus musculus with 12 samples.

Results

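10 genes of the bone morphogenetic protein (BMP) pathway were followed in mouse embryonic fibroblasts (MEF cells), and are described here by their role in it. They are the ligand genes Bmp2 and Bmp4, the secreted antagonist gene Grem1, the receptor genes Bmpr1a and Bmpr2, Smad1, Smad6, and the target genes Id1, Id2 and Id3. They were picked by gene name, as the 10 rows with these symbols among 43280 entries in the table of the IDH2 mutant and among 23930 entries in the table of the 2-HG treatment. All 10 had a row in both tables, and 9 of them passed the filter on low values (1 read per 1000000 reads, 1 RPM, on average over the libraries of a table) in each table, Bmp2 being the exception.

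Transcripts were measured by Ion AmpliSeq RNA-seq in 12 libraries, 3 in each of 4 groups. All cells came from C57BL/6 embryos at embryonic day 13.5 and had become immortal through serial passage. In the first experiment, 2MUT cells stably expressed the human IDH2 mutant R172S with a FLAG tag from the retroviral vector pMXs-puro, and Control cells carried the vector without insert. Both were used as puromycin-resistant cells, with no cloning step described, and kept their own mouse Idh2. In the second, MEF cells received 300 μM of 2-hydroxyglutarate (2-HG), a metabolite made by mutant IDH enzymes, for 24 h (2-HG(+)), or the solvent DMSO (2-HG(-)). The form given was the membrane-permeant octyl ester of the (R) enantiomer. The labels give DMSO for the 2-HG(-) group, whereas the study calls these cells non-treated. The comparisons address which transcripts change with the mutant enzyme and which with its metabolite. Cells expressing wild-type IDH2 were not among these libraries. Changes due to the mutation, to expression of IDH2 as such and to separate transduction and selection therefore cannot be told apart. Each library held 6472439 to 7313602 reads in the first experiment and 14959318 to 18363768 in the second. The labels do not say whether replicates came from separate cultures, so the p-values measure the spread between these samples, which may be technical. In these bulk samples, fewer cells of a type and less RNA per cell cannot be told apart.

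BMP ligands are secreted proteins that join type I and type II receptor kinases at the cell surface. The type I receptor then phosphorylates SMAD1, SMAD5 and SMAD9, which enter the nucleus with SMAD4 and act on target genes. Among the best known targets in fibroblasts and other mesenchymal cells are the ID genes, whose proteins bind E proteins and keep them off DNA, and Smad6 and Smad7, whose products hold the pathway back. Secreted antagonists such as gremlin 1 bind ligands outside the cell.

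The stretches upstream of Bmp4 and Grem1 are shown because these genes had the steepest fall and the steepest rise among the 10 in 2MUT cells. RefSeq held a promoter entry (GRCm38.p6, 250 bases before to 50 bases after the transcript start) for 8 of the 10 genes, all but Bmp2 and Id1. Each was searched on both strands for GGCGCC, a GC-rich SMAD1/5 motif that reads the same on both strands, and for CAGAC, the SMAD-binding element, which reads GTCTG on the other strand. The letters of these motifs do not overlap each other. Below are the 250 bases before the start of Bmp4 (chr14:46390670-46390919, minus strand) and of Grem1 (chr2:113758649-113758898, minus strand), 5′ to 3′ on the gene's strand, with matches in capitals.
Bmp4: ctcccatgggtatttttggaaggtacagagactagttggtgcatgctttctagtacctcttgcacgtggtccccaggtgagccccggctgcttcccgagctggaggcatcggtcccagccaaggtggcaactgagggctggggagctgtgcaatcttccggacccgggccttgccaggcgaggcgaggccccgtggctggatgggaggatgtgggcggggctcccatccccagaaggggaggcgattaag
Grem1: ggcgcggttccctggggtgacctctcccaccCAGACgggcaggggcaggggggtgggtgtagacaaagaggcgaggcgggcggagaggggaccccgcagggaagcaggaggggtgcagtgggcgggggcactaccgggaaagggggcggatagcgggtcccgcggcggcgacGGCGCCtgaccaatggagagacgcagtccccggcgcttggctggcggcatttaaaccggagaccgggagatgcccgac
The Grem1 stretch held GGCGCC from base -78 and CAGAC from base -219, counted from the start, whereas the Bmp4 stretch held neither. For Id2 and Id3, 30 bases around each match are shown, since the annotated spans of these genes cover their upstream windows. The spans of Bmpr1a and Bmpr2 cover theirs too, and those windows are not printed. The bases shown lie at chr12:25096306-25096335 on the minus strand for Id2, and at chr4:136143643-136143672 and chr4:136143742-136143771 on the plus strand for Id3.
Id2: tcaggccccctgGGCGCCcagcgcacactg
Id3, distal: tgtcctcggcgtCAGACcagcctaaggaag
Id3, proximal: ggacccttggcgGTCTGttttgaataaggg
These matches began at base -231 of Id2 and at bases -167 and -68 of Id3. Over the 300-base entries, 4 of the 8 genes held GGCGCC (Grem1, Bmpr1a, Bmpr2 and Id2) and 2 held CAGAC or GTCTG (Grem1 and Id3), and the entries of Bmp4, Smad1 and Smad6 held neither. Among all 32851 promoters of that length, 11.9% held GGCGCC and 49.6% held CAGAC or GTCTG. A match describes letters only, and its absence says no more than that these letters are not in the window.

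The ligand Bmp4 was lower in both experiments. Bmp4 encodes a ligand that patterns mesoderm and bone and is made by many fibroblasts. It lies on chromosome 14 from 46383520 to 46390669 (GRCm38, GENCODE M21). Its level was 168, 183 and 183 RPM in the Control libraries and 70.9, 61.9 and 58.1 RPM in the 2MUT libraries. The groups lay far apart, with every 2MUT library under every Control library. The mean fell from 178 ± 8.56 to 63.6 ± 6.59 RPM (SD, n = 3), a 2.80-fold lower level, and the log2 fold change on log2(RPM + 1) was -1.47 ± 0.11 (SE, limma, adjusted p = 4.1e-06). With 2-HG, the level was 38.4, 29.7 and 35.5 RPM in the 2-HG(-) libraries and 5.82, 6.43 and 7.32 RPM in the 2-HG(+) libraries. Again no library of one group reached the other. The mean was 5.30-fold lower, at 6.52 ± 0.75 against 34.6 ± 4.41 RPM, and the log2 fold change was -2.24 ± 0.14 (adjusted p = 5.9e-06). Ranked by log2 fold change from the most negative, Bmp4 was number 177 of 11065 genes with the mutant and number 42 of 10384 with 2-HG. The genes Gm15217 and Gm15222, which overlap it on the other strand, had at most 1 read in any library or were not analysed here.

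Bmp4 was the sole BMP ligand gene of those listed with a level above the filter. Bmp2, on chromosome 2 from 133552159 to 133562885, was listed at 0 in all 12 libraries. A count of 0 allows up to 3 reads per library, which is 0.410 to 0.464 RPM in the first experiment and 0.163 to 0.201 RPM in the second, for counting error only. Of 12 other ligand genes (Bmp3, Bmp5, Bmp6, Bmp7, Bmp8a, Bmp8b, Bmp10, Bmp15, Gdf2, Gdf5, Gdf6 and Gdf7), 8 were listed at 0 in every library of the first experiment and 4 were under the filter. In the second, 5 were listed at 0, 5 were under the filter, and Bmp8a and Gdf5 were not analysed here. Bmp6, a ligand known for its role in iron control, had the highest group mean of these, in 2-HG(+). Its values there were 0.595, 0.962 and 0.523 RPM, against 0.272, 0.134 and 0.120 RPM in 2-HG(-) libraries. In the first experiment it had 0.155, 0 and 1.51 RPM in 2MUT libraries and 0.296, 0.57 and 0 RPM in Control libraries. These values rest on 16 reads at most in a library, and with the filter Bmp6 was not tested.

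The antagonist Grem1 rose steeply in 2MUT cells, and with 2-HG it went the other way by a small step that barely passed the test. Grem1, on chromosome 2 from 113746164 to 113758646, encodes gremlin 1, which binds BMP2 and BMP4. Control libraries had 17.9, 17.9 and 21.9 RPM and 2MUT libraries 122, 130 and 110 RPM. All 2MUT libraries stood well above all Control libraries. The mean rose 6.28-fold, from 19.2 ± 2.28 to 121 ± 9.94 RPM, with a log2 fold change of 2.59 ± 0.13 (adjusted p = 2.9e-07), which ranked number 15 of 11065 from the most positive. In the second experiment the values were 4.14, 5.01 and 3.48 RPM without and 3.50, 2.10 and 2.09 RPM with 2-HG, so the groups overlapped. The log2 fold change was -0.56 ± 0.19, at an adjusted p of 0.0496. That call was lost on leaving out 2-HG(-) replicate 1, 2 or 3 or 2-HG(+) replicate 2 or 3 (adjusted p 0.060 to 0.15), and in each of 7 other settings that could be tried, and it rested on 32 to 76 reads per library.

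**Figure D1:**
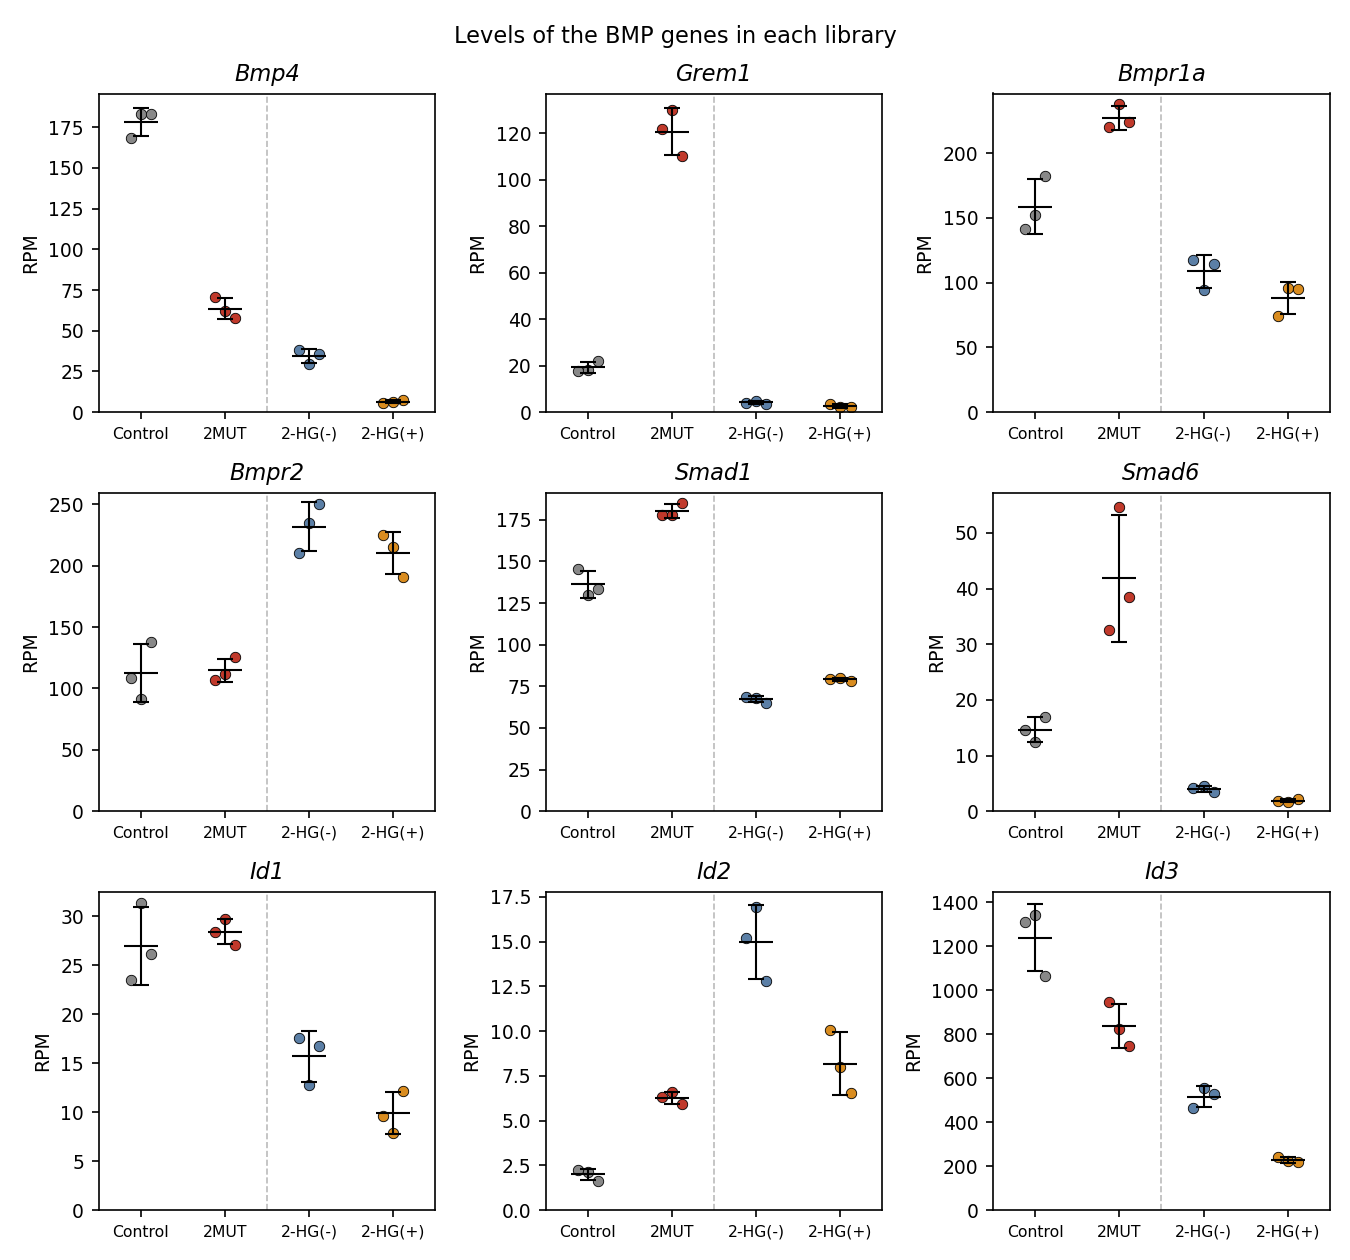
Level of each gene in RPM (vertical axes from 0, each with its own scale) by group (horizontal axes); points are libraries, and the bar and whiskers give the mean and SD of 3 libraries. The dashed line separates the experiments, whose levels are not compared; Bmp2, at 0 in all 12 libraries, is not drawn. Bmp4 was lower in both test groups, whereas each of Grem1, Smad6 and Id2 rose in 2MUT cells and had a lower mean in 2-HG(+).

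Among the receptors, Bmpr1a was higher in 2MUT cells and Bmpr2 passed the test in neither experiment. Bmpr1a, on chromosome 14 from 34410734 to 34503341, encodes the type I receptor kinase ALK3. Its values were 141, 152 and 182 RPM in Control and 220, 238 and 224 RPM in 2MUT libraries, with no overlap. The log2 fold change was 0.52 ± 0.11 (adjusted p = 0.0038). After 2-HG it was 73.9, 96.3 and 94.8 RPM, against 118, 94.0 and 114 RPM without. These groups overlapped, and the log2 fold change of -0.30 (95% interval -0.60 to 0.00) had an adjusted p of 0.12. The antisense gene Gm17110, which overlaps it, was listed at 0 in the first experiment and not analysed here in the second.

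Bmpr2, on chromosome 1 from 59763400 to 59879014, encodes the type II receptor whose kinase switches on the type I receptor. It had 108, 91.7 and 138 RPM in Control and 107, 111 and 126 RPM in 2MUT libraries. The Control values spread over the whole range of the 2MUT values, and the log2 fold change was 0.04 (95% interval -0.27 to 0.36, adjusted p = 0.85). In the second experiment it had 211, 235 and 250 RPM without and 225, 215 and 191 RPM with 2-HG, which overlapped as well. The change of -0.14 (95% interval -0.37 to 0.10) had an adjusted p of 0.34. These intervals bound the change, and do not show that it was absent. Gm38125, which overlaps Bmpr2 on the same strand, was not analysed here.

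The SMAD genes parted, with Smad1 moving little and Smad6 moving in opposite directions. Smad1, on chromosome 8 from 79338395 to 79399518, encodes a transcription factor that BMP receptors phosphorylate. Its level was 145, 130 and 134 RPM in Control and 178, 178 and 185 RPM in 2MUT libraries. All 2MUT libraries were higher, by a log2 fold change of 0.40 ± 0.09 (adjusted p = 0.0068). It was 68.8, 68.0 and 65.1 RPM without and 79.3, 80.0 and 78.1 RPM with 2-HG. Here too the groups did not overlap, but the log2 fold change of 0.23 ± 0.09 missed the threshold (adjusted p = 0.077) and passed it where each gene's own spread was used without limma's moderation (adjusted p = 0.013).

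Smad6, on chromosome 9 from 63953076 to 64022059, encodes an inhibitory SMAD that competes with SMAD1 and is itself a BMP target. Control libraries had 14.6, 12.4 and 17.0 RPM and 2MUT libraries 32.6, 54.6 and 38.4 RPM. The lowest 2MUT library was above the highest Control library, although the 2MUT values were spread widely. The mean was 2.85-fold higher, and the log2 fold change was 1.43 ± 0.20 (adjusted p = 0.00028). With 2-HG the values went from 4.14, 4.48 and 3.48 RPM to 1.85, 1.68 and 2.16 RPM. The mean was 2.13-fold lower without overlap, with a log2 fold change of -0.80 ± 0.15 (adjusted p = 0.0032). The 2-HG(+) values rest on 28 to 33 reads per library.

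The 3 ID genes did not move as one in 2MUT cells, and all fell with 2-HG. ID proteins lack a DNA-binding region and pair with E proteins. Id1, on chromosome 2 from 152736251 to 152737410, is often used as a readout of BMP signalling. It had 23.5, 31.3 and 26.1 RPM in Control and 28.4, 29.7 and 27.1 RPM in 2MUT libraries. The 2MUT values lay inside the range of the Control values, and the log2 fold change was 0.08 (95% interval -0.24 to 0.40, adjusted p = 0.70). With 2-HG it went from 17.6, 12.8 and 16.8 RPM to 9.65, 7.88 and 12.2 RPM. All 2-HG(+) libraries were lower, the closest pair being 12.2 and 12.8 RPM. The log2 fold change was -0.62 ± 0.18 (adjusted p = 0.025), and the call was lost without 2-HG(-) replicate 1 (adjusted p = 0.0878), 2-HG(-) replicate 3 (0.0925) or 2-HG(+) replicate 2 (0.0912). It was also lost under an unmoderated test (adjusted p = 0.119) and with no filter on low values (0.0542).

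Id2, on chromosome 12 from 25093799 to 25097140, acts in the differentiation of many lineages. Its Control values were 2.22, 2.14 and 1.64 RPM and its 2MUT values 6.33, 6.59 and 5.92 RPM. The mean was 3.14-fold higher, with 12 to 15 reads per Control library and 41 to 45 per 2MUT library. The log2 fold change was 1.28 ± 0.21 (adjusted p = 0.00079), and the added 1 RPM understates it at so low a level. In the second experiment Id2 had 15.2, 16.9 and 12.8 RPM without and 10.0, 8.00 and 6.53 RPM with 2-HG. The direction was the reverse of that in 2MUT cells, again without overlap, and the log2 fold change was -0.81 ± 0.17 (adjusted p = 0.0061), a call lost under an unmoderated test (adjusted p = 0.0593).

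Id3, on chromosome 4 from 136143497 to 136145755, was the one ID gene that fell in both experiments. Control libraries had 1309, 1343 and 1065 RPM and 2MUT libraries 947, 823 and 748 RPM. No value overlapped, and the log2 fold change was -0.56 ± 0.12 (adjusted p = 0.0034), a call lost under an unmoderated test (adjusted p = 0.0701). With 2-HG it went from 462, 556 and 530 RPM to 243, 223 and 217 RPM. The mean was 2.27-fold lower, with a log2 fold change of -1.17 ± 0.10 (adjusted p = 3.9e-05).

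**Figure D2:**
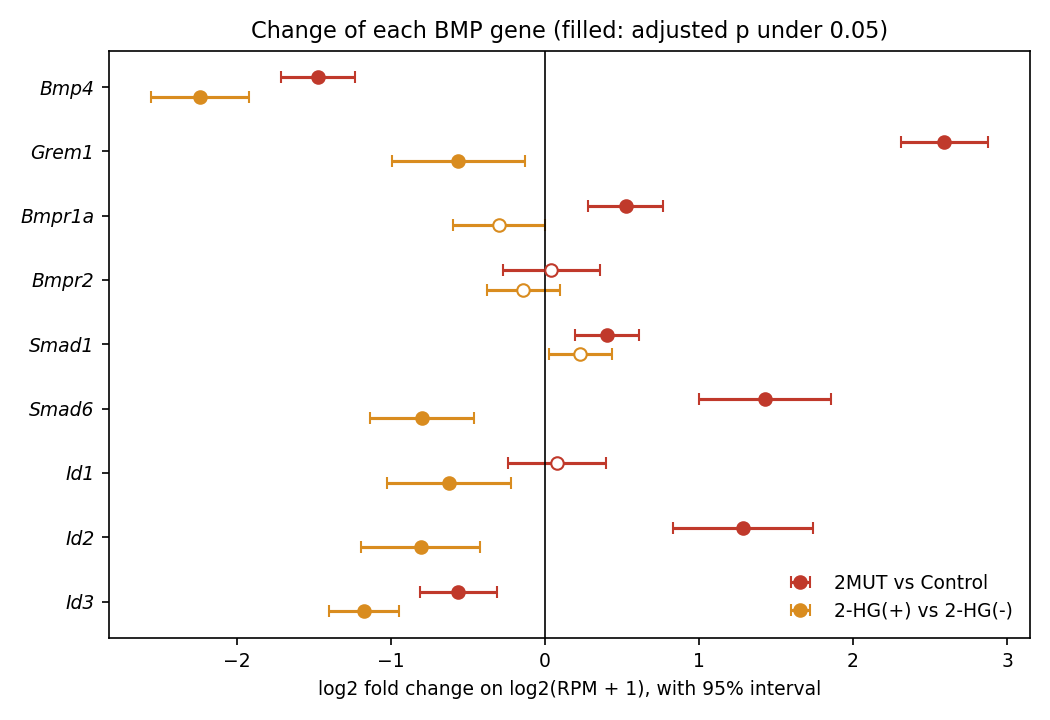
Log2 fold change of each gene on log2(RPM + 1) (horizontal axis) with its 95% interval, for 2MUT against Control (red) and 2-HG(+) against 2-HG(-) (orange), 3 libraries per group; filled points passed an adjusted p of 0.05. Grem1, Smad6 and Id2 lie on opposite sides of 0 in the 2 comparisons, and Bmp4 and Id3 on the negative side in both.

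Counted together, 5 of the 9 tested genes were higher (Grem1, Bmpr1a, Smad1, Smad6 and Id2) and 2 lower (Bmp4 and Id3) in 2MUT cells. Over all genes tested in that experiment, 16.5% were called higher and 17.3% lower, 33.8% in all. With 2-HG, 6 of 9 were lower (Bmp4, Grem1, Smad6, Id1, Id2 and Id3), beside 16.7% lower, 16.1% higher and 32.8% called in either direction over all genes. No member was called higher by limma, edgeR or DESeq2, and 1, Smad1, was higher at an unadjusted p under 0.05 by limma. edgeR and DESeq2 each called 5 of the 6 lower, without Grem1. The groups did not overlap for 7 members with the mutant and 6 with 2-HG, against 47.5% of all genes with the mutant (23.5% higher, 24.0% lower) and 46.3% with 2-HG (22.2% higher, 24.1% lower). The median log2 fold change of the 9 was 0.40 with the mutant and -0.62 with 2-HG, against 0.01 and -0.02 over all genes. The genes were chosen by name with earlier results of these data known, so these shares describe them and test nothing.

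Set beside the ligand, the ID genes kept a larger share of their reference level than Bmp4 did in either experiment. Bmp4 in 2MUT libraries stood at 35.7% of its Control mean (libraries 32.6% to 39.8%), while Id3 stood at 67.7% (60.4% to 76.4%), Id1 at 105% (100.4% to 110.1%) and Id2 at 314% (296% to 330%). With 2-HG, Bmp4 stood at 18.9% of its 2-HG(-) mean (16.8% to 21.2%), Id3 at 44.1% (42.1% to 47.0%), Id2 at 54.7% (43.7% to 67.1%) and Id1 at 63.0% (50.2% to 77.4%). No ID value of a test library reached down to a Bmp4 value of the same experiment on this scale. Bmp4 was number 177 of 11065 genes with the mutant and 42 of 10384 with 2-HG from the most negative change. Most genes therefore kept a larger share than Bmp4, and this is not particular to the ID genes. Grem1, the antagonist, stood at 628% (573% to 676%) with the mutant and 60.9% (49.6% to 83.2%) with 2-HG. As a ratio within each library, Grem1 over Bmp4 was higher by 4.07 on the log2(RPM + 1) scale in 2MUT than in Control and by 1.68 in 2-HG(+) than in 2-HG(-), and in both cases no library overlapped. The inhibitory Smad6 over Smad1 shifted by 1.03 with the mutant and by -1.03 with 2-HG on that scale, and the added 1 RPM shrinks the shift of a gene as low as Smad6. On log2 of RPM with nothing added, a scale chosen after seeing the data, Grem1 over Bmp4 shifted by 4.14 and 1.66, and Smad6 over Smad1 by 1.08 and -1.32. Amplified targets differ between genes, so only shifts of a ratio between groups can be read, not its level. These shifts were not tested against other genes.

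**Figure D3:**
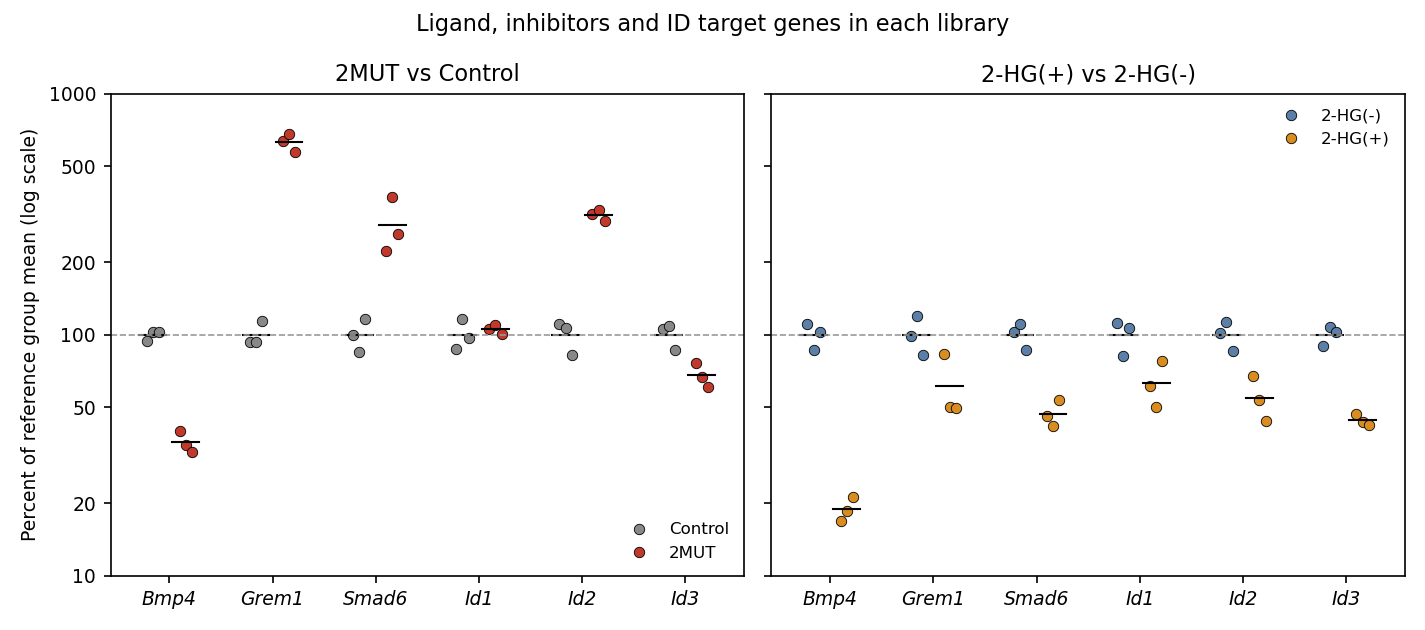
Level of the ligand gene Bmp4, the inhibitor genes Grem1 and Smad6 and the 3 ID genes as a percent of the reference group's mean (vertical axis, log scale), for 2MUT with Control (left) and 2-HG(+) with 2-HG(-) (right); points are libraries and bars group means. Bmp4 sits lowest in both test groups, at 35.7% and 18.9%, and the ID genes sit above it.

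Whether each change differed between the experiments was tested as a contrast over the 12 libraries. Of the 9 members, 7 differed, beside 39.4% of 9594 genes tested in both. All 7 differences were toward a higher value in 2MUT cells, a direction called for 19.9% of all genes, with 19.5% called the other way. Grem1 differed most, by 3.15 ± 0.24 on the log2 scale (adjusted p = 4.5e-07), followed by Smad6 by 2.23 ± 0.27 (adjusted p = 2.1e-05) and Id2 by 2.09 ± 0.24 (adjusted p = 1.5e-05). These are the 3 members called in opposite directions, although Grem1's call with 2-HG did not hold in most settings. Bmpr1a differed by 0.82 ± 0.18 (adjusted p = 0.0030). Bmp4 and Id3, which fell in both, fell less with the mutant, by differences of 0.76 ± 0.18 (adjusted p = 0.0040) and 0.61 ± 0.17 (adjusted p = 0.0095). Id1 differed by 0.70 ± 0.24 (adjusted p = 0.031). Its call was lost without Control replicate 1, 2MUT replicate 1 or 2, 2-HG(-) replicate 1 or 3, or 2-HG(+) replicate 1 or 2 (adjusted p 0.051 to 0.082), and under an unmoderated test (adjusted p = 0.0563). Bmpr2 (0.18, 95% interval -0.23 to 0.59) and Smad1 (0.17, 95% interval -0.08 to 0.43) missed the threshold, with adjusted p of 0.49 and 0.27. The experiments differ in agent and length of exposure, in depth and in the entries of their tables, and whether cells of the second carried a vector is not given in the sources used here. These cannot be told apart here.

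Other genes of the pathway were taken from a list of 50, of which 26 passed the filter in each experiment. In 2MUT cells 8 were higher and 3 lower, and with 2-HG 1 was higher and 8 lower. Their median log2 fold changes were 0.10 and -0.20. By share, 30.8% were higher and 11.5% lower with the mutant, and 3.85% were higher and 30.8% lower with 2-HG, to be read beside the shares over all genes above.

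Among receptors and co-receptors, Rgmb was higher in 2MUT cells and Rgma was lower in both experiments. Rgma and Rgmb encode membrane-anchored co-receptors that bind BMP ligands. Rgmb rose by a log2 fold change of 0.67 (adjusted p = 0.0014), from 45.5 ± 2.16 to 73.4 ± 7.49 RPM, and had -0.30 with 2-HG (adjusted p = 0.13). Acvr1, which encodes the type I receptor ALK2, rose by 0.38 (adjusted p = 0.015), and Acvr2a, a type II receptor gene, by 0.62 (adjusted p = 0.035). Rgma had -0.32 with the mutant (adjusted p = 0.031) and -0.36 with 2-HG (adjusted p = 0.022). Several of these calls were lost when 1 library was left out, at log2 fold changes of the same sign. Over the leave-one-out fits these ran from 0.33 to 0.44 for Acvr1 and from 0.47 to 0.81 for Acvr2a. For Rgma they ran from -0.36 to -0.25 with the mutant and from -0.41 to -0.31 with 2-HG. Without 2MUT replicate 1 or 3 the adjusted p of Acvr1 was 0.054 or 0.051, without Control replicate 2 or 2MUT replicate 2 or 3 that of Acvr2a was 0.0764 to 0.139, without Control replicate 1 or 2MUT replicate 1 or 2 that of Rgma was 0.075 to 0.11, and in the second experiment without 2-HG(-) replicate 3 or 2-HG(+) replicate 2 or 3 it was 0.050 to 0.096. The call of Rgma was also lost with the mutant under an unmoderated test (adjusted p = 0.0646) and with 2-HG under a replicate block (adjusted p = 0.0745). Of the 9 genes of this group, 6 were tested with the mutant and 5 with 2-HG.

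In the SMAD and ubiquitin ligase group, Smad7 and Smurf1 were higher and the signalling SMADs passed no test. Smad7 encodes the other inhibitory SMAD, and SMURF1 marks SMAD1 and SMAD5 for breakdown. Smad7 was 1.31-fold higher in 2MUT cells, a log2 fold change of 0.39 (adjusted p = 0.0072), and had 0.35 with 2-HG (adjusted p = 0.064). That last change passed the threshold under median-of-ratios scaling, edgeR and DESeq2 (adjusted p = 0.0367 to 0.0484) and without 2-HG(+) replicate 2 (adjusted p = 0.042). Smurf1 rose by 0.40 with the mutant (adjusted p = 0.033) and by 0.46 with 2-HG (adjusted p = 0.0056), from 78.7 ± 4.64 to 108 ± 5.82 RPM. Its call in 2MUT cells was lost without Control replicate 1 or 2 or 2MUT replicate 1, 2 or 3 (adjusted p 0.051 to 0.12). The 4 others, Smad4, Smad5, Smad9 and Smurf2, had log2 fold changes of -0.02 to 0.12 in 2MUT cells.

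Nbl1 and Fstl1 were the extracellular inhibitors and modulators called in opposite directions. With the mutant 3 of 8 tested genes were higher, beside 16.5% of all genes. With 2-HG 4 of 9 were lower, beside 16.7% of all genes. Nbl1, which encodes a gremlin-related BMP antagonist, rose from 35.7 ± 4.59 to 73.0 ± 2.47 RPM in 2MUT cells (log2 fold change 1.02, adjusted p = 0.00015) and fell from 12.0 ± 1.91 to 6.71 ± 0.55 RPM with 2-HG (-0.75, adjusted p = 0.0044). Fstl1, which encodes a follistatin-like glycoprotein that can bind BMP4, rose by 0.64 (adjusted p = 0.00024) and had -0.57 with 2-HG (adjusted p = 0.0071). The difference between the experiments was 1.77 ± 0.20 for Nbl1 (adjusted p = 1.1e-05) and 1.21 ± 0.15 for Fstl1 (adjusted p = 3e-05), and their calls held in each of 6 leave-one-out fits of either experiment, whereas that of Fstl1 with 2-HG was lost under an unmoderated test (adjusted p = 0.0540). Fstl3, a follistatin-like activin inhibitor gene, rose by 0.68 (adjusted p = 0.017) with the mutant, and its adjusted p was 0.081 without 2MUT replicate 2 and 0.061 without 2MUT replicate 3. Fst, which encodes follistatin, had -1.25 with 2-HG (adjusted p = 0.00067), from 6.36 ± 1.50 to 2.06 ± 0.29 RPM, and -0.03 with the mutant (adjusted p = 0.96). Bmper, which encodes a BMP-binding protein, had -0.82 with 2-HG (adjusted p = 0.0045). In 2MUT cells its log2 fold change was -0.39 at an adjusted p of 0.083, which became 0.037 without 2MUT replicate 2.

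Target genes outside the ID family and the partners of the ID proteins came last. Of 3 tested targets, Atoh8 (from 21.5 ± 1.95 to 10.2 ± 2.60 RPM, log2 fold change -1.04, adjusted p = 0.0019) and Runx2 (-0.76, adjusted p = 0.031) fell with 2-HG. Atoh8 encodes a helix-loop-helix factor and Runx2 the master regulator of bone formation. Runx2 lost its call without 2-HG(-) replicate 1 (adjusted p = 0.096) or 3 (0.11). With the mutant the log2 fold changes of Atoh8, Runx2 and Dlx5 lay between -0.18 and 0.24, at adjusted p of 0.34 to 0.89. Id4, the fourth ID gene, was not analysed here in the second experiment. Among the 3 E protein genes, whose products ID proteins bind, Tcf4 was lower in both, by -0.63 with the mutant (adjusted p = 0.0010) and -0.82 with 2-HG (adjusted p = 0.043), and Tcf3 was lower with the mutant (-0.36, adjusted p = 0.044). The Tcf4 level in 2-HG(+) libraries was 81.2, 37.9 and 92.3 RPM, with replicate 2 far below the others. Its log2 fold change with 2-HG ran from -1.06 to -0.43 over the leave-one-out fits, and was -0.43 without that replicate. The call was lost without 2-HG(-) replicate 1, 2 or 3 (adjusted p 0.089 to 0.099) and in 5 of 8 other settings (adjusted p 0.051 to 0.22), edgeR and median-of-ratios scaling among them. That of Tcf3 was lost without Control replicate 2 or 3 or 2MUT replicate 1, 2 or 3 (adjusted p 0.059 to 0.17).

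**Figure D4:**
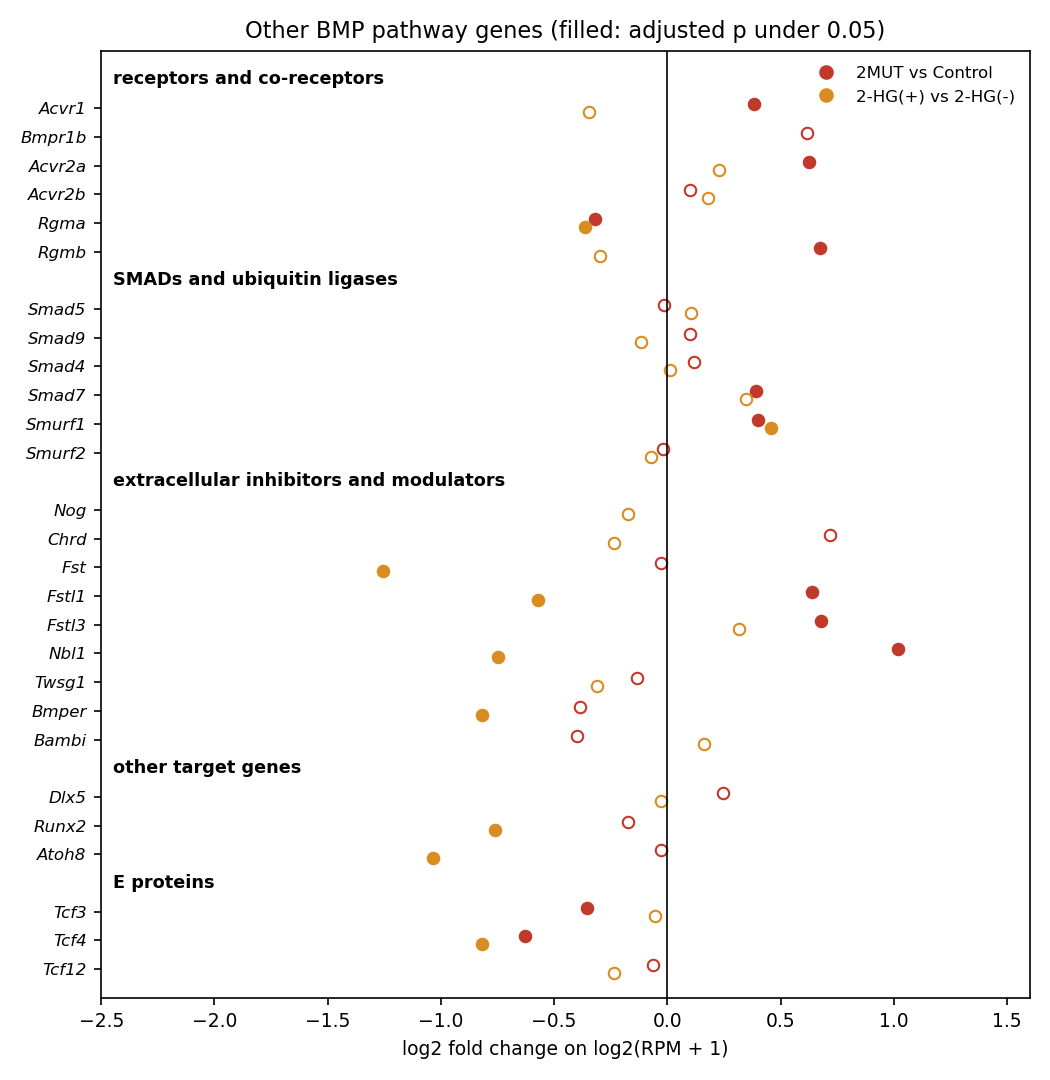
Log2 fold change on log2(RPM + 1) (horizontal axis) of the other BMP pathway genes that passed the filter, grouped by role, for 2MUT against Control (red) and 2-HG(+) against 2-HG(-) (orange), 3 libraries per group; filled points passed an adjusted p of 0.05. Nbl1 and Fstl1 are filled on opposite sides of 0, and Tcf4 and Rgma on the negative side in both comparisons.

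Genes with the pattern most like that of Bmp4 and of Id1 were found by Pearson's r of log2(RPM + 1) over the 12 libraries after subtracting each table's mean, among 6727 genes that averaged 10 RPM or more in each table. For Bmp4 these were Lgals9 (galectin 9, r = 0.989), Jup (junction plakoglobin, r = 0.988) and Kank2 (r = 0.988). Lgals9 had log2 fold changes of -0.60 and -0.91, Jup -0.65 and -0.96, and Kank2 -0.58 and -0.84, all smaller than those of Bmp4. For Id1 they were Fyco1 (r = 0.932), Iqsec1 (r = 0.916) and Tspan11 (r = 0.915). Fyco1 had 0.07 with the mutant and -0.74 with 2-HG, a shape close to that of Id1. The 12 points share libraries and depth and fall into 4 groups, so these r values mostly describe the group means.

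The cells carried fibroblast markers throughout, and those markers moved too. The summed level of Col1a1, Col1a2, Vim, Pdgfra, Pdgfrb and Thy1 was 10830 to 11922 RPM in Control and 7514 to 8118 RPM in 2MUT libraries, and 19698 to 21235 RPM without and 13530 to 14754 RPM with 2-HG. With the mutant 5 of 6 were called lower, beside 17.3% of all genes, the exception being Pdgfra (log2 fold change 0.31, adjusted p = 0.062). Of these calls, that of Pdgfrb (adjusted p = 0.0486) was lost on leaving out any of the 6 libraries (0.0551 to 0.179) and that of Col1a1 without Control replicate 3 or 2MUT replicate 2 or 3 (up to 0.112) and with no filter (0.208), while edgeR called 4 of 6 lower. With 2-HG, Col1a2, Pdgfra and Pdgfrb were lower and Thy1 was higher, the last not under an unmoderated test (adjusted p = 0.0718). The part of this shift in the changes of the BMP genes was not tested. The summed endothelial markers reached at most 2.94 RPM and the epithelial markers at most 0.878 RPM in any library, with Tie1 and Epcam at 0 in all 12. The macrophage markers, most of whose level came from Cd68, summed to 7.55 to 12.4 RPM in Control and 7.16 to 8.65 RPM in 2MUT libraries, and to 12.1 to 14.6 RPM without and 8.93 to 11.1 RPM with 2-HG, while Ptprc had at most 1 read in a library. Cd68 was lower with 2-HG, from a mean of 12.4 to 8.46 RPM (log2 fold change -0.51, adjusted p = 0.021), without overlap. Its call was lost without 2-HG(-) replicate 1 or 2 or 2-HG(+) replicate 2 (adjusted p 0.0614 to 0.0723), with no filter (0.0576), under an unmoderated test (0.0549) and under a replicate block (0.0660). Csf1r, under the filter with the mutant, had 0 to 4 reads per Control library and 5 to 11 per 2MUT library. The part of these markers in the changes of the BMP genes was not tested either. Mouse Idh2 had a log2 fold change of -0.63 in 2MUT cells (adjusted p = 0.0030) and 0.43 with 2-HG (adjusted p = 0.011), a call lost without 2-HG(-) replicate 3 (0.0547) or 2-HG(+) replicate 2 (0.0518) and under an unmoderated test (0.0509). The expressed mutant is a human cDNA, and whether the mouse target reads it was not tested, so this does not check the labels.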

How the data were processed

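RNA of 12 libraries of MEF cells was read by Ion AmpliSeq, which amplifies 1 target per transcript, so levels are not compared between genes. The authors aligned the reads with TMAP to the AmpliSeq mouse reference, counted them with the AmpliSeqRNA plug-in. The deposited values are RPM, the reads of a gene per 1000000 counted, with no other normalization found in the values. The tables list different entries, so levels are not compared between them. Whole reads were recovered from all values (tolerance 0.02 reads).

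Each comparison was fitted with limma 3.58.1 (R 4.3.3, mean-variance trend) on log2(RPM + 1) over its 6 libraries, for genes averaging 1 RPM or more, with a two-sided Benjamini-Hochberg adjusted p under 0.05 over all genes tested. The log scale with 1 RPM added understates changes of low genes. edgeR 4.0.16 and DESeq2 1.42.0 on the recovered reads were alternatives, and the fits were tested on simulated data. The members, lists and tests were chosen with earlier results of these data known. The text names the 10 members, list genes past the threshold, the 3 genes most like Bmp4 and the 3 most like Id1, and Idh2. Other genes named were chosen after their values were seen. Between replicates of a group, a chi-square per degree of freedom of 5.57 to 31.4 showed more than sampling noise, so each library counted once. Protein sequences were not used here.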

Additional observations from a re-analysis of the deposited data

Results flagged for a closer look

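For 7 genes the change differed between the experiments by a test of the difference itself (limma, adjusted p under 0.05). Over all 9594 genes tested in both, 39.4% were called, and 19.9% toward a higher value with the mutant. The log2 fold change with the mutant was above that with 2-HG by 0.76 for Bmp4, 3.15 for Grem1, 0.82 for Bmpr1a, 2.23 for Smad6, 0.70 for Id1, 2.09 for Id2 and 0.61 for Id3. That of Id1 was lost under an unmoderated test (adjusted p = 0.0563) and on leaving out any of 7 of the 12 libraries. The libraries of the 2 experiments are separate, so no control is shared between these changes. Groups of 3 libraries are too small for the check on single outlying samples.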

How the results depend on the processing

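Over 8 other settings and 6 leave-one-out fits per experiment, Bmp4 and Smad6 kept their direction and call in both experiments wherever they were tested, as did Grem1 and Id2 with the mutant and Id3 with 2-HG. Under an unmoderated test, members lower were 1 with the mutant and 3 with 2-HG, where 1 was higher, and other pathway genes were 5 higher and 1 lower with the mutant and 5 lower with 2-HG. It lost the calls of Id3, Acvr2a, Rgma, Smurf1, Fstl3 and Tcf3 with the mutant (adjusted p 0.0646 to 0.152) and of Grem1, Id1, Id2, Fstl1, Runx2 and Tcf4 with 2-HG (adjusted p 0.0540 to 0.223). A filter of 10 RPM left 4 members with a difference between the experiments and 5 other genes lower with 2-HG. Grem1, Smad6 and Id2 were no longer tested for the difference, nor Fst and Nbl1 with 2-HG, while Tcf4 was tested and missed the threshold (adjusted p = 0.0514). With no filter the calls of Id1, Grem1, Runx2 and Tcf4 with 2-HG and of Acvr2a and Tcf3 with the mutant were lost (adjusted p 0.0542 to 0.114). Other genes higher with 2-HG were 2 with no filter, median-of-ratios scaling, edgeR or DESeq2. Leaving out 1 library gave 4 to 8 (lowest without 2MUT replicate 3) other genes higher and 1 to 2 (lowest without 2MUT replicate 1) lower with the mutant, and 1 to 3 (highest without 2-HG(+) replicate 2) higher and 5 to 8 (lowest without 2-HG(-) replicate 3) lower with 2-HG. The sign changed among those fits for Bmpr2 (-0.10 to 0.20), Id1 (-0.010 to 0.19), Fst (-0.44 to 0.27) and Atoh8 (-0.14 to 0.094) with the mutant, and for Tcf3 (-0.16 to 0.073) and Nog (-0.66 to 0.70) with 2-HG; Nog was also 0.30 by edgeR and 0.32 by DESeq2. The sign also changed among those fits for the uncalled genes Smad5, Acvr2b, Smurf2 and Tcf12 with the mutant and Smad4, Smurf2 and Dlx5 with 2-HG. The cause was not tested. Replicate numbers did not pair samples (correlations 0.03 to 0.07 and -0.46 to 0.06). A replicate block gave 5 members higher and 2 lower with the mutant and 5 lower with 2-HG. Under it, other pathway genes were 9 higher and 4 lower with the mutant, where Bmper was gained among the lower (adjusted p = 0.0468). The gain among the higher is not named here. With 2-HG they were 1 higher and 7 lower (Rgma lost, adjusted p = 0.0745). Depth limits Bmp2, Id2 in Control and Smad6 and Grem1 with 2-HG, at 0 to 76 reads per library.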

Other observations

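Nog, which encodes the BMP antagonist noggin, was picked out after its values were seen. In 2-HG(+) libraries it had 5.16, 0.06 and 6.01 RPM, the middle value being 1 read, and in 2-HG(-) libraries 3.16, 3.48 and 2.52 RPM. The log2 fold change was -0.17 (limma, adjusted p = 0.85) with all libraries and 0.70 (adjusted p = 0.022) without 2-HG(+) replicate 2. The same library had the low Tcf4 value of 37.9 RPM.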
